A study of Homo sapiens with 11 samples.

Results

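Endothelial marker genes are genes whose RNA or protein is used to recognise the cells that line blood vessels. The set described here was a list of 38 such genes chosen by name, with earlier results of these data known. Of the 38, 37 had a row among the 19990 genes of the count table. MMP28 was not analysed here. All 37 passed the filter on low counts, which removed 0 genes from the table. Expression was followed in cells that were not made as endothelium. They were cardiomyocytes made from WTC11, an established line of human induced pluripotent stem cells, taken at passage 63. Differentiation was directed with CHIR99021, which inhibits GSK3 and so activates Wnt signalling, followed by IWP2, which blocks Wnt secretion. All wells came from a single differentiation, stayed in medium with B27 supplement that held insulin after the first days on B27 without it, and were collected as 4 wells on Day 30, 3 wells on Day 60 and 4 wells on Day 113. Per the labels' protocols, the share of cells with cardiac troponin T was measured by flow cytometry in other wells before the long culture, and no sorting step before collection is described. Poly(A) RNA of each well was sequenced in paired-end reads. Since the replicates were wells of the same differentiation, every p-value measures the spread between these wells only, and day and collection cannot be told apart.

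Endothelial cells are held together by junctions built from VE-cadherin and platelet endothelial cell adhesion molecule, and they respond to vascular endothelial growth factors and angiopoietins through receptor tyrosine kinases. Their identity rests largely on transcription factors of the ETS family, such as ERG and FLI1, which bind sites with a GGAA core in the control regions of many endothelial genes. In the heart, endothelium lines the coronary vessels and, as endocardium, the chambers, and it arises from mesodermal progenitors related to those of cardiomyocytes.

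Because ETS factors are among the genes described, promoter sequences were searched for the ETS core AGGAAG on both strands. A RefSeq promoter (GRCh38.p14, 250 bases before to 50 bases after the start) was matched for 25 of the 37 genes. Where RefSeq gave several starts, as it did for 8 of the 25, the most upstream was used. The core was present in 15 of the 25 promoters (60%) and in 32.6% of 13692 promoters of all genes of the table with an entry. Over all listed starts it was present in 23 of 36 windows (63.9%), against 32.8% of 19584. A different ETS form, CCGGAAG, does not contain AGGAAG and was searched separately. It was in 0 of 25 promoters against 15.9% of the table. The GATA site AGATAA was in 3 (12%, against 6.65%), and the TATA box TATAAA was in 3 (12%, against 7.08%). The windows below are the 50 bases around the core nearest the start in 5 genes where those bases lay upstream of the start and touched no annotated exon. They are written 5′ to 3′ on the strand of the gene, and capitals mark the core around which each window was cut. The PLVAP window also holds another match, left in lower case.
ECSCR, chr5:139462761-139462810, minus strand: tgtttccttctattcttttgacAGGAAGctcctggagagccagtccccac
EMCN, chr4:100518140-100518189, minus strand: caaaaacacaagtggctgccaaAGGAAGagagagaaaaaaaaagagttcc
PLVAP, chr19:17377367-17377416, minus strand: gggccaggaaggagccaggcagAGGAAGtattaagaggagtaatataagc
EGFL7, chr9:136658778-136658827, plus strand: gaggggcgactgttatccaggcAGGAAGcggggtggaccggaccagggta
FLT1, chr13:28495154-28495203, minus strand: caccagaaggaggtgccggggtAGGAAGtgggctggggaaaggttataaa
The core began 45 bases upstream of the start in ECSCR, 145 in EMCN, 52 in PLVAP, 56 in EGFL7 and 53 in FLT1, and the promoters of PLVAP and FLT1 held 2 matches each. Such a match is a stretch of letters and not a measured binding site.

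Library totals ran from 24.1 to 34.5 M counts, and the 37 genes took 0.1% to 0.116% of the counts of each Day 30 or Day 60 library and 0.155% to 0.294% of each Day 113 library. Cardiomyocyte genes were abundant in every well. Troponin T (TNNT2) ran from 2260 to 3270 CPM (counts scaled to 1 M per library, with TMM factors) at Day 30 and from 3680 to 5820 at Day 113, and beta myosin heavy chain (MYH7) from 11900 to 18800 and from 8070 to 10300. The 14 cardiomyocyte genes of a comparison list summed to 38400 to 56700 CPM over the 11 wells. The 37 endothelial genes summed to 1020 to 1150 CPM at Day 30, 1030 to 1200 at Day 60 and 1500 to 2930 at Day 113. This sum and the share of counts are weighted to abundant genes, as AQP1 alone averaged 498, 643 and 569 CPM. AQP1, CAV1 and LYVE1 summed to 485 to 589, 695 to 897 and 741 to 843 CPM on the 3 days. The 13 genes of junction and surface proteins summed to 144 to 215, 96 to 164 and 358 to 1180, and the 6 tyrosine kinases to 81.3 to 117, 45.3 to 72 and 104 to 303. Pairs of wells within a day gave a chi-square of 11.4 to 84 for each degree of freedom over all genes, well above the value of sampling alone, and each well was counted as a sample of its own.

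The endothelial genes were mostly level or lower between Day 30 and Day 60 and then rose together by Day 113. Between Day 60 and Day 113, 32 of the 37 rose and 0 fell (edgeR quasi-likelihood test, adjusted p under 0.05 over all genes), where 24% of all genes tested were called and 12.9% were called higher. Their median log2 fold change was 2.86, against 0 over all genes. The 5 that were not called were S1PR1, MMRN1, BMX, AQP1 and PODXL. At an unadjusted p under 0.05 MMRN1 was the 1 gene counted lower, and DESeq2 and limma-voom called 0 lower. The wells of these days did not overlap for 30 of the 37, all of which were higher at Day 113, and for S1PR1 and MMRN1, which were lower, where 16.2% and 14.4% of all genes were higher or lower without overlap. In bulk RNA, more cells of a type and more RNA per cell cannot be told apart.

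**Figure D1:**
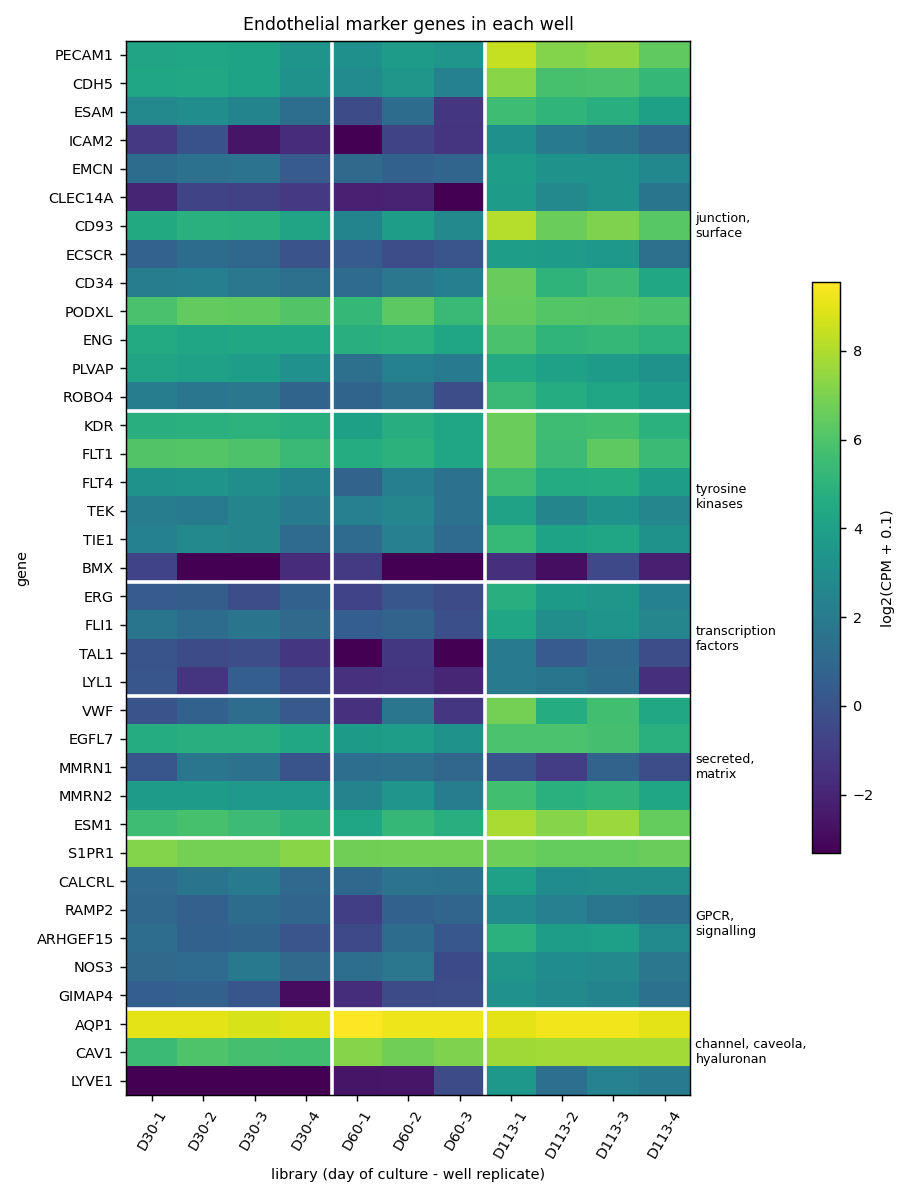
Expression of the 37 endothelial marker genes in the 11 libraries, as log2(CPM + 0.1), with libraries in columns (day of culture and well replicate) and genes in rows grouped by role. Most rows are brightest in the 4 Day 113 columns and brightest of all in Day 113 replicate 1, while AQP1, S1PR1 and PODXL differ little in shade across the columns and LYVE1 is at 0 counts in the 4 Day 30 columns.

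Between Day 30 and Day 60 fewer genes moved and most of those fell. LYVE1 and CAV1 rose, and FLT1, FLT4, ESAM, EGFL7, PLVAP and CD93 fell, which made 8 of 37 called (21.6%) beside 10.3% of all genes tested (4.39% higher, 5.91% lower). The median log2 fold change of the 37 was -0.59, against -0.01 over all genes, and 6 of the 37 had a value above 0. That count changed when single wells were left out, and so did the count over all genes, which was 2060 with all wells. Leaving out Day 30 replicate 1, Day 30 replicate 2 or Day 60 replicate 1 gave 5 calls. Over all genes these omissions gave 1525, 1323 and 1259. Leaving out Day 60 replicate 3 gave 4, with 1220 over all genes. The count for the 37 was also 5 with limma-voom or robust dispersions, with 2009 and 2038 over all genes. In the other direction it was 12 with DESeq2 (2710 over all genes), 12 in a fit of these days alone (2979) and 13 with the replicate block (2474). It was 11 when Day 60 replicate 2 was left out (1657 over all genes) and 12 when Day 113 replicate 1 was (2410). Over all alternatives CDH5, FLI1, ROBO4, MMRN2, CLEC14A, TAL1, KDR, PODXL and ESM1 were each called lower at Day 60 at least once, and AQP1 higher.

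Over the whole culture, from Day 30 to Day 113, 28 of the 37 rose and S1PR1 fell, beside 34.5% of all genes called (17.3% higher, 17.2% lower), and the median log2 fold change was 1.94, against -0.02. A test of any change over the 3 days called 33 of the 37, against 37.1% of all genes, and left MMRN1, BMX, AQP1 and PODXL. The change from Day 60 to Day 113 was itself compared with the change from Day 30 to Day 60. This difference was called above 0 for 24 of the 37 and below 0 for 0 (2 at an unadjusted p under 0.05, AQP1 and CAV1, and 1 with DESeq2), where 9.34% of all genes were called, 4.97% above 0 and 4.38% below. Without Day 60 replicate 3 it was called for 15, and with limma-voom for 13.

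The largest pattern, with 22 genes, was no call in the first interval, a rise in the second and a higher level at Day 113 than at Day 30. FLT4, ESAM, EGFL7 and CD93 fell and then rose to a level above that of Day 30. FLT1 and PLVAP fell and rose again with no call between Day 113 and Day 30. LYVE1 and CAV1 rose in both intervals. TAL1 and LYL1 rose only between Day 60 and Day 113, with no call between Day 30 and Day 113.

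**Figure D2:**
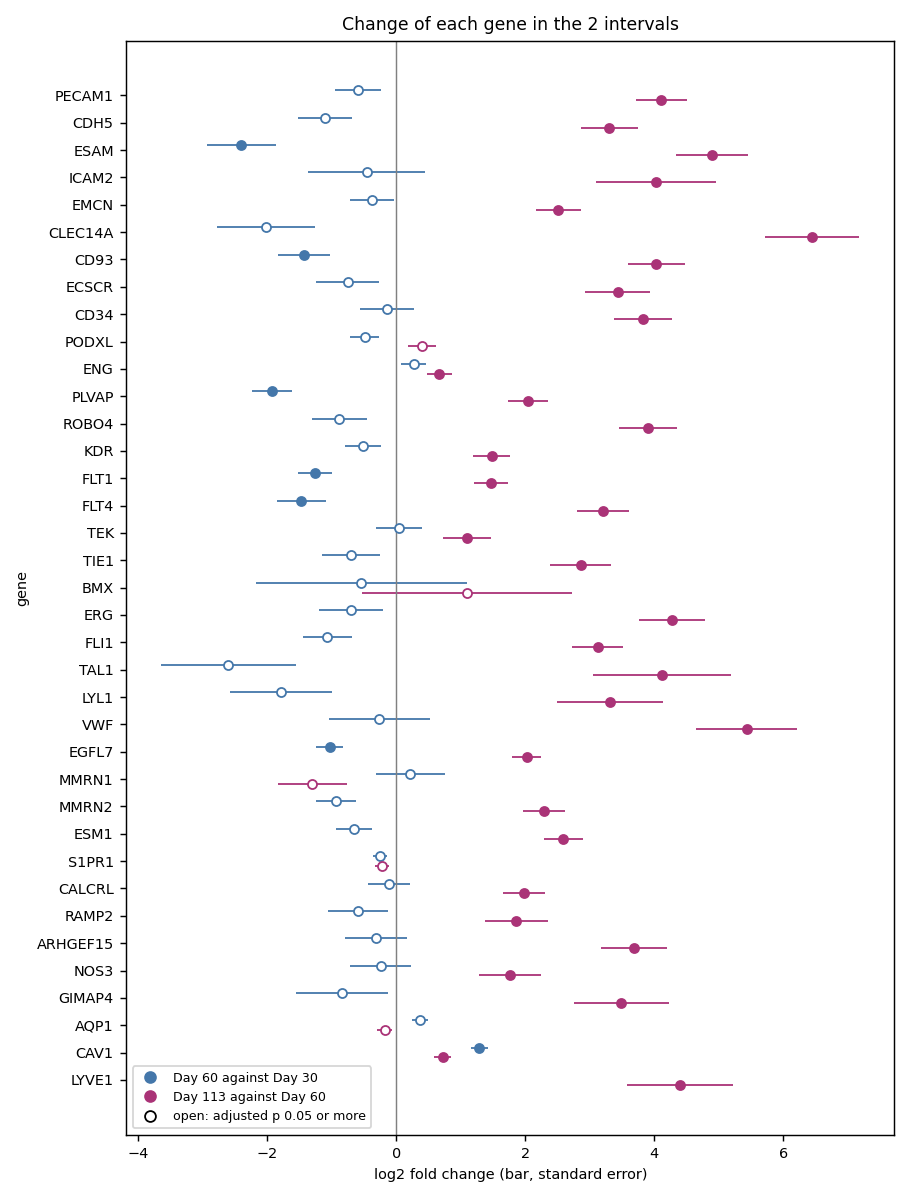
Fitted log2 fold change of each gene between Day 30 and Day 60 (blue) and between Day 60 and Day 113 (purple), with bars for 1 standard error, filled where the adjusted p was under 0.05. The purple points of 32 genes are filled and lie right of 0, and the blue points are filled for CAV1 on the right and 6 genes on the left; the rise of LYVE1 in the first interval is not plotted because its Day 30 counts were all 0.

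The genes for proteins of endothelial junctions and of the cell surface were 13, of which 12 rose between Day 60 and Day 113. Beside this count and those of the groups below stands the 12.9% of all genes that were called higher in that interval. PECAM1 (CD31, chromosome 17, 64319415 to 64413776, minus strand, GRCh38), an adhesion molecule at contacts between endothelial cells, read 18.1, 19.3, 17.3 and 10 CPM in replicates 1 to 4 of Day 30, 8.71, 13.4 and 10.3 in replicates 1 to 3 of Day 60 and 347, 143, 169 and 84.5 in replicates 1 to 4 of Day 113. The Day 30 and Day 60 wells overlapped, and each Day 113 well was above every earlier well. PECAM1 rose 17.2-fold from Day 60 (log2 fold change 4.11 ± 0.40, SE; adjusted p 8.2e-06) and was 11.5-fold above Day 30 (adjusted p 1.5e-06). CDH5 (VE-cadherin, chromosome 16, 66366622 to 66404786), the cadherin of adherens junctions in endothelium, read 18.8, 21.2, 17.7 and 9.65 CPM at Day 30, 7.24, 11.3 and 4.95 at Day 60 and 155, 56.2, 57.6 and 37.6 at Day 113. Day 113 replicate 1 stood far above the other wells of its day. The rise of CDH5 from Day 60 was 9.82-fold (log2 fold change 3.30 ± 0.44, SE; adjusted p 1.0e-04), or 2.70 on the log2 scale without Day 113 replicate 1. Against Day 30 the log2 fold change was 2.19 ± 0.37 (SE; adjusted p 3.0e-04), or 1.59 without that well.

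ESAM (chromosome 11, 124752583 to 124762290), an adhesion molecule of tight junctions in endothelium and platelets, read 6.65, 7.81, 5.43 and 2.37 CPM at Day 30, 0.702, 2.21 and 0.315 at Day 60 and 46.7, 34.7, 27.7 and 16 at Day 113. All Day 60 wells were below all Day 30 wells, and all Day 113 wells were above both. ESAM fell 5.28-fold by Day 60 (log2 fold change -2.40 ± 0.53, SE; adjusted p 0.0086) and then rose 29.7-fold (adjusted p 2.9e-05). The fall was not called without Day 60 replicate 1 (adjusted p 0.053), with robust dispersions (0.053) or with limma-voom (0.13), and without Day 60 replicate 2 its log2 fold change was -3.44 and that of the later rise 5.93. CD93 (chromosome 20, 23079349 to 23086340), a transmembrane glycoprotein of endothelial and myeloid cells, read 22.7, 28.7, 26.7 and 18.3 CPM at Day 30, 5.46, 15 and 6.62 at Day 60 and 280, 99.4, 131 and 74.9 at Day 113. It fell 2.69-fold by Day 60 (log2 fold change -1.43 ± 0.40, SE; adjusted p 0.032), a call lost with limma-voom (0.079) and robust dispersions (0.15) and without Day 30 replicate 1 (0.059), Day 30 replicate 2 (0.092), Day 30 replicate 3 (0.074), Day 60 replicate 1 (0.15) or Day 60 replicate 3 (0.16). It then rose 16.3-fold (adjusted p 2.0e-05).

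PLVAP, which forms the diaphragms of fenestrae and caveolae, read 18.1, 16.4, 14 and 9.14 CPM at Day 30, 2.62, 4.86 and 3.97 at Day 60 and 23.2, 16.6, 13.8 and 9.31 at Day 113. The Day 60 wells were below all others, and the Day 30 and Day 113 wells overlapped. It fell 3.78-fold (log2 fold change -1.92 ± 0.31, SE; adjusted p 9.9e-04) and rose 4.13-fold (log2 fold change 2.05 ± 0.31, SE; adjusted p 2.9e-04), with no call between Day 113 and Day 30 (adjusted p 0.75). CD34, a sialomucin of endothelial and progenitor cells, read 4.24, 4.6, 3.49 and 2.61 CPM at Day 30, 2.14, 3.39 and 4.64 at Day 60 and 93.2, 32.6, 45.9 and 20.4 at Day 113. It rose 14.2-fold from Day 60 and was 12.9-fold above Day 30 (adjusted p 3.1e-05 and 3.6e-06). ROBO4, an endothelial receptor of the Roundabout family, read 4.09, 3.2, 3.32 and 1.68 CPM at Day 30, 1.69, 2.58 and 0.757 at Day 60 and 41.6, 25.2, 19.6 and 13.2 at Day 113, a 15-fold rise from Day 60 (adjusted p 2.9e-05). EMCN (endomucin), a sialomucin of venous and capillary endothelium, read 2.25, 2.84, 2.9 and 1.2 CPM at Day 30, 2.11, 1.51 and 1.7 at Day 60 and 14.7, 9.79, 9.7 and 6.26 at Day 113, a 5.69-fold rise (adjusted p 1.5e-04).

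ECSCR, an endothelial surface protein involved in cell movement, read 1.57, 2.2, 1.94 and 0.893 CPM at Day 30, 1.24, 0.737 and 0.946 at Day 60 and 14.4, 13.8, 11.6 and 2.61 at Day 113. Its Day 113 replicate 4 was well below the other wells of that day but above every earlier well, and the rise from Day 60 was 10.8-fold (adjusted p 2.4e-04). CLEC14A, a C-type lectin of endothelium, had 4, 4 and 0 counts in the Day 60 wells and 468, 172, 337 and 77 in the Day 113 wells, and at Day 30 it had 4 to 16 counts. Its rise from Day 60 was called (adjusted p 2.7e-05), as was that from Day 30 (adjusted p 1.6e-05), and the log2 fold change of 6.45 from Day 60 was 5.84 without Day 60 replicate 3. ICAM2, an adhesion molecule of resting endothelium, read 0.344, 0.834, 0.0658 and 0.206 CPM at Day 30, 0, 0.516 and 0.284 at Day 60 and 8.83, 3.97, 2.71 and 1.72 at Day 113. Its log2 fold change from Day 60 was 4.02 ± 0.93 (SE; adjusted p 0.0055), and the value ran from 3.39 without Day 113 replicate 1 to 4.88 without Day 60 replicate 2. Exons of ICAM2 overlap those of PRR29 over 869 bases, and the sources used here do not say whether counting used strand, so its counts are uncertain. ENG (endoglin), a co-receptor for BMP and TGF-beta ligands that fibroblasts also make, read 23.5, 19.1, 20.8 and 21 CPM at Day 30, 27.5, 29.6 and 19.5 at Day 60 and 58.7, 34.3, 37.5 and 31.9 at Day 113. It rose 1.59-fold from Day 60 (adjusted p 0.02), a call lost without Day 60 replicate 3 (adjusted p 0.11) or Day 113 replicate 1 (0.05) and in a fit of these days alone (0.053), and it was 1.92-fold above Day 30 (adjusted p 7.6e-04). PODXL (podocalyxin), a sialomucin that podocytes and pluripotent cells also make, read 58.3, 88.3, 84.7 and 66.7 CPM at Day 30, 38.3, 79.1 and 42 at Day 60 and 89, 67.8, 66.4 and 56.7 at Day 113, and it was not called in any comparison of days with all wells. Without Day 60 replicate 2, its highest well of that day, PODXL was called lower at Day 60 than at Day 30 (log2 fold change -0.89, adjusted p 0.01) and higher at Day 113 than at Day 60 (0.80, adjusted p 0.0091).

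**Figure D3:**
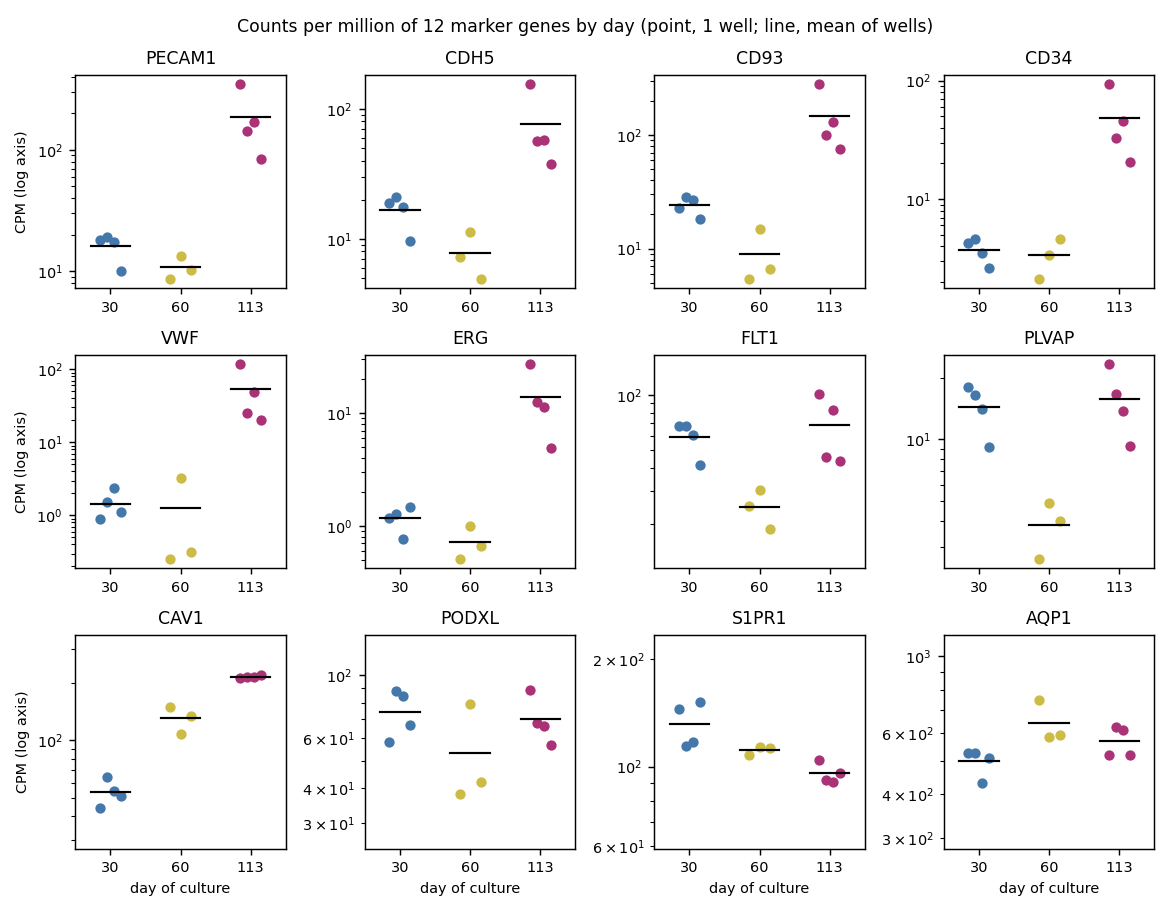
CPM on a log axis of 12 of the genes by day of culture, with a point for each well and a line at the mean of the wells. PECAM1, CDH5, CD93, CD34, VWF and ERG have all 4 Day 113 wells above every earlier well, FLT1 and PLVAP have their lowest wells at Day 60, CAV1 is higher at each later day, and PODXL and AQP1 were not called in any comparison of days with all wells.

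The tyrosine kinases were 6, of which 5 rose between Day 60 and Day 113 and FLT1 and FLT4 fell before that. KDR (VEGFR2), the main signalling receptor for VEGFA in endothelium, read 27.8, 28.7, 31.9 and 28.1 CPM at Day 30, 16, 26.2 and 19 at Day 60 and 99, 47.1, 50.1 and 30.2 at Day 113. Day 60 wells were all below Day 30 wells without a call, and Day 113 replicate 4 lay within the Day 30 range. KDR rose 2.78-fold from Day 60 (log2 fold change 1.48 ± 0.29, SE; adjusted p 0.0019) and was 1.95-fold above Day 30 (adjusted p 0.009). FLT1 (VEGFR1, chromosome 13, 28300344 to 28495145), which binds VEGFA, VEGFB and PGF and has a soluble form that traps them, read 67.4, 67.9, 60.8 and 41.6 CPM at Day 30, 25.1, 30.4 and 18.7 at Day 60 and 101, 45.8, 82.4 and 43.6 at Day 113. It fell 2.4-fold by Day 60 (log2 fold change -1.26 ± 0.27, SE; adjusted p 0.007; 0.053 without Day 60 replicate 3) and rose 2.76-fold after it (adjusted p 0.0012). Day 113 and Day 30 overlapped and were not called apart (adjusted p 0.56). The difference between the intervals was 2.73 ± 0.50 for FLT1 on the log2 scale (SE; adjusted p 0.0037).

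FLT4 (VEGFR3), the receptor for VEGFC in lymphatic and sprouting endothelium, read 9.66, 9.94, 8 and 5.5 CPM at Day 30, 1.63, 4.61 and 2.74 at Day 60 and 46, 24, 25 and 14.2 at Day 113. It fell 2.78-fold by Day 60 (adjusted p 0.02), a call lost with limma-voom (0.11), with robust dispersions (0.052) and without Day 30 replicate 1 (0.053), Day 30 replicate 2 (0.063), Day 60 replicate 1 (0.11) or Day 60 replicate 3 (0.092). It rose 9.18-fold from Day 60 to Day 113 (log2 fold change 3.20 ± 0.40, SE; adjusted p 5.2e-05). TIE1, an orphan partner of the angiopoietin receptor, read 5, 6.5, 5.79 and 2.16 CPM at Day 30, 2.17, 4.72 and 2.14 at Day 60 and 39.7, 17.6, 19.8 and 9.63 at Day 113, a 7.24-fold rise (adjusted p 4.6e-04). TEK (TIE2), the angiopoietin receptor, read 4.09, 4, 5.79 and 3.68 CPM at Day 30, 4.79, 6.08 and 2.68 at Day 60 and 17, 5.77, 9.7 and 6.06 at Day 113. Its Day 113 wells overlapped both earlier days, and the rise of 2.14-fold from Day 60 (adjusted p 0.041) was not called without Day 113 replicate 1 (adjusted p 0.15), Day 60 replicate 1 (0.093), Day 60 replicate 3 (0.17), Day 113 replicate 3 (0.068), Day 30 replicate 1 (0.053) or Day 30 replicate 2 (0.054), nor with upper-quartile scaling (0.051) or in a fit of these days alone (0.077). Against Day 30 the log2 fold change of TEK was 1.14, or 0.71 without Day 113 replicate 1 (adjusted p 0.077). BMX, a cytoplasmic kinase of arterial endothelium and endocardium, had 0 to 22 counts in any well and was not called.

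The transcription factors were 4, and all rose between Day 60 and Day 113. ERG (chromosome 21, 38380027 to 38661780), the ETS factor that maintains endothelial identity, read 1.18, 1.27, 0.757 and 1.48 CPM at Day 30, 0.511, 0.995 and 0.662 at Day 60 and 27.1, 12.7, 11.3 and 4.93 at Day 113. Every Day 113 well was above every earlier well. ERG rose 19.4-fold (log2 fold change 4.28 ± 0.51, SE; adjusted p 4.0e-05) and was 11.9-fold above Day 30 (adjusted p 1.2e-05). FLI1, the closely related ETS factor that blood cells also use, read 3.09, 2.2, 3.03 and 2.1 CPM at Day 30, 1.34, 1.58 and 0.789 at Day 60 and 18.8, 7.99, 10.1 and 6.1 at Day 113. It rose 8.7-fold (log2 fold change 3.12 ± 0.40, SE; adjusted p 6.7e-05) and was 4.13-fold above Day 30 (adjusted p 2.2e-04).

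TAL1 (SCL) and LYL1 are related helix-loop-helix factors of endothelial and blood progenitors. TAL1 had 24, 21, 22 and 9 counts at Day 30, 0, 9 and 0 at Day 60, and 127, 32, 70 and 18 at Day 113. Its rise from Day 60 was called (adjusted p 0.011), and without Day 60 replicate 2, the only Day 60 well with counts, it was at least 19.9-fold, taking the floor of 3 counts that a count of 0 allows. The log2 fold change of TAL1 was 4.12, or 3.52 without either of the Day 60 wells at 0. LYL1 had 26, 9, 40 and 19 counts at Day 30, 8, 8 and 5 at Day 60, and 135, 82, 79 and 6 at Day 113. The log2 fold change of LYL1 from Day 60 was 3.31 ± 0.82 (SE; adjusted p 0.0079), but Day 113 replicate 4 lay among the Day 60 wells and limma-voom gave no call (adjusted p 0.11). Neither gene was called between Day 30 and Day 113 (adjusted p 0.16 and 0.084), although LYL1 was called without Day 113 replicate 4 (0.012) and TAL1 in a fit of those days alone (0.047).

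The genes for secreted and matrix proteins were 5, of which 4 rose. VWF (chromosome 12, 5948874 to 6124770), the clotting factor stored in endothelial Weibel-Palade bodies, read 0.878, 1.5, 2.34 and 1.1 CPM at Day 30, 0.255, 3.24 and 0.315 at Day 60 and 117, 25, 49.6 and 20.4 at Day 113. Day 60 replicate 2 held 88 of the 106 VWF counts of that day, and Day 113 replicate 1 was the highest well. Each Day 113 well was above every earlier well, and the log2 fold change from Day 30 was 5.17 ± 0.68 (SE; adjusted p 2.7e-05; 4.44 without Day 113 replicate 1). From Day 60 it was 5.43, or 7.52 without Day 60 replicate 2 and 4.68 without Day 113 replicate 1. ESM1 (endocan, chromosome 5, 54977864 to 55022671), a proteoglycan that VEGF induces in tip cells, read 46.3, 54.8, 44.6 and 32.5 CPM at Day 30, 19, 38.3 and 27.6 at Day 60 and 243, 150, 197 and 90.3 at Day 113. It rose 6.03-fold (log2 fold change 2.59 ± 0.30, SE; adjusted p 3.0e-05) and was 3.83-fold above Day 30 (adjusted p 3.6e-05).

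EGFL7, a matrix protein that guides the forming vessel tube, read 25.2, 27.8, 26.6 and 21 CPM at Day 30, 13, 14.3 and 9.68 at Day 60 and 58.8, 58.9, 53.2 and 29.1 at Day 113. It fell 2.04-fold by Day 60 (log2 fold change -1.03 ± 0.21, SE; adjusted p 0.0059), rose 4.06-fold after it (adjusted p 2.0e-05) and ended 1.99-fold above Day 30 (adjusted p 8.1e-04). Its 3 days did not overlap. MMRN2, an endothelial matrix protein that binds CD93 and CLEC14A, read 13.2, 13.9, 12.6 and 12.1 CPM at Day 30, 5.3, 10.8 and 4.26 at Day 60 and 50, 28.3, 34.1 and 19.3 at Day 113, a 4.88-fold rise from Day 60 (adjusted p 1.3e-04). All its Day 60 wells were below all Day 30 wells, and this difference (log2 fold change -0.94 ± 0.31, SE; adjusted p 0.065) was called with DESeq2 (0.021), with the replicate block (0.022), in a fit of these days alone (0.027) and without Day 60 replicate 2 (0.0084), Day 113 replicate 1 (0.028) or Day 113 replicate 4 (0.039). MMRN1 (multimerin 1), stored in platelets and endothelium and used as a lymphatic marker, read 0.993, 3.2, 2.67 and 0.928 CPM at Day 30, 2.39, 2.58 and 1.83 at Day 60 and 0.924, 0.412, 1.6 and 0.722 at Day 113. Its Day 113 wells were all below its Day 60 wells and overlapped Day 30, and its log2 fold changes of -1.30 from Day 60 and -1.08 from Day 30 (adjusted p 0.091 and 0.11) were not called, except without Day 113 replicate 3 (0.043 and 0.047).

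Of the 6 genes for G protein-coupled receptors and intracellular signalling, 5 rose between Day 60 and Day 113. CALCRL, the receptor that with RAMP2 binds adrenomedullin, read 2.18, 3.04, 3.69 and 2.03 CPM at Day 30, 1.95, 2.91 and 2.78 at Day 60 and 16.3, 7.61, 8.04 and 8.18 at Day 113. It rose 3.95-fold (log2 fold change 1.98 ± 0.33, SE; adjusted p 5.5e-04). RAMP2 read 1.87, 1.43, 2.2 and 1.75 CPM at Day 30, 0.415, 1.51 and 1.7 at Day 60 and 7.27, 4.69, 3.25 and 2.37 at Day 113, a 3.64-fold rise from Day 60 (adjusted p 0.011). Against Day 30 its log2 fold change was 1.28 (adjusted p 0.03), not called under the replicate block (0.051) or without Day 113 replicate 1 (0.13), Day 113 replicate 2 (0.054), Day 30 replicate 1 (0.063), Day 30 replicate 2 (0.076) or Day 30 replicate 4 (0.063). Exons of RAMP2 overlap those of RAMP2-AS1 over 412 bases, and those of NOS3 overlap ATG9B over 786, so these counts are uncertain too.

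NOS3, the endothelial nitric oxide synthase, read 2.1, 2.17, 3.52 and 2.06 CPM at Day 30, 2.39, 3.28 and 0.631 at Day 60 and 11, 7.61, 6.45 and 3.37 at Day 113. It rose 3.4-fold from Day 60 (log2 fold change 1.76 ± 0.48, SE; adjusted p 0.014), and Day 113 replicate 4 lay within the Day 30 range. ARHGEF15, a guanine nucleotide exchange factor of endothelium, read 2.33, 1.5, 1.65 and 0.962 CPM at Day 30, 0.606, 2.25 and 1.04 at Day 60 and 29.7, 14.1, 15.1 and 6.98 at Day 113, a 12.8-fold rise (adjusted p 1.3e-04; log2 fold change 3.68, or 4.32 without Day 60 replicate 2). GIMAP4, a GTPase of lymphocytes and endothelium, read 1.34, 1.5, 0.987 and 0.0344 CPM at Day 30, 0.223, 0.663 and 0.726 at Day 60 and 9.01, 7.01, 5.53 and 2.65 at Day 113, an 11.2-fold rise (adjusted p 0.0032). S1PR1 (chromosome 1, 101236865 to 101243713), the sphingosine 1-phosphate receptor that stabilises vessels, read 145, 115, 117 and 152 CPM at Day 30, 108, 114 and 113 at Day 60 and 104, 92.1, 90.9 and 95.8 at Day 113. Its days were ordered downwards without overlap, and it was the gene of the 37 called lower between Day 30 and Day 113 (1.38-fold, log2 fold change -0.46 ± 0.10, SE; adjusted p 0.0021).

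The water channel AQP1, the caveolar coat protein CAV1 and the hyaluronan receptor LYVE1 form the last group. AQP1 (chromosome 7, 30911694 to 30925516), which red cells, endothelium and other tissues make, read 527, 525, 431 and 508 CPM at Day 30, 748, 587 and 593 at Day 60 and 518, 625, 613 and 519 at Day 113. It was not called in any pair of days (adjusted p 0.058, 0.31 and 0.19), although several alternatives called it higher at Day 60 than at Day 30, with adjusted p-values down to 0.012. CAV1 (chromosome 7, 116524785 to 116561184), made in endothelium, smooth muscle and fibroblasts as well, read 44.1, 64, 54.3 and 51 CPM at Day 30, 149, 108 and 135 at Day 60 and 211, 215, 216 and 220 at Day 113. Its 3 days did not overlap, and the 4 Day 113 wells were nearly equal. CAV1 rose 2.45-fold by Day 60 (log2 fold change 1.29 ± 0.13, SE; adjusted p 1.4e-05) and 1.65-fold after it (log2 fold change 0.72 ± 0.13, SE; adjusted p 8.0e-04). LYVE1 (chromosome 11, 10556966 to 10611689), a marker of lymphatic endothelium and some macrophages, had 0 counts in each Day 30 well, 2, 2 and 21 at Day 60, and 401, 66, 181 and 100 at Day 113. Against the floor of 3 counts per library, the Day 113 level of LYVE1 was at least 55.8-fold higher than the Day 30 level (37.3-fold when Day 113 replicate 1 was left out), with an adjusted p of 2.8e-05. Its call between Day 30 and Day 60 (adjusted p 0.025) rested on Day 60 replicate 3, which held 21 of its 25 counts, and the other wells stayed under the floor. From Day 60 to Day 113 LYVE1 rose by 4.4 on the log2 scale (adjusted p 0.002; 6.31 without Day 60 replicate 3).

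Most of the 37 genes had the same highest and the same lowest well at Day 113. Day 113 replicate 1 was the highest of its day for 32 of the 37, against 26.6% of all genes, and replicate 4 was the lowest for 29, against 23.4% of all genes. EGFL7, MMRN1, BMX, AQP1 and CAV1 peaked in another well. Relative to the mean of the day, the median of the 37 genes was 1.65 in replicate 1, 0.86 in replicate 2, 0.937 in replicate 3 and 0.53 in replicate 4, while the median of all genes was 0.984 to 0.992. Replicate 1 over replicate 4 was 3.09 in the median and at least 2 for 29 of the 37, from 0.96 for CAV1 to 16.2 for LYL1. Without replicate 1 the genes called between Day 60 and Day 113 were 30, and without replicate 4 they were 32.

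**Figure D4:**
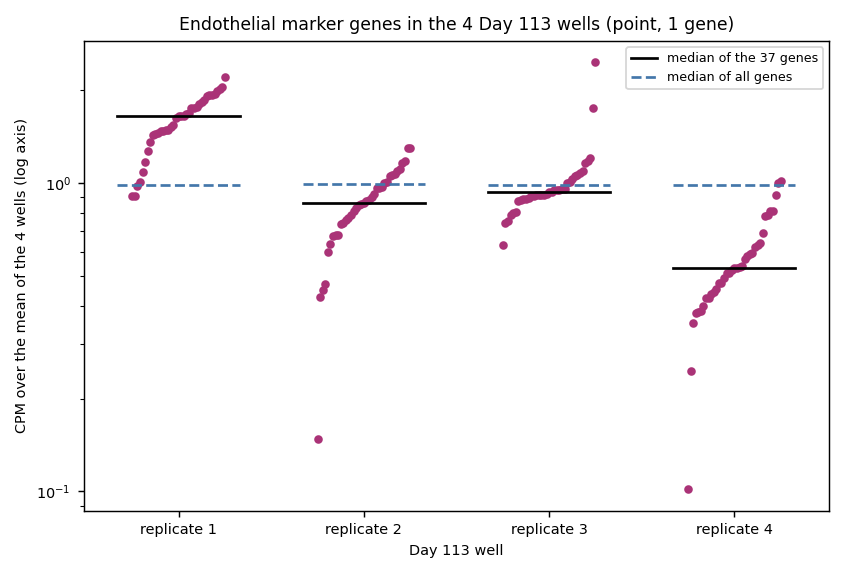
CPM of each of the 37 genes in a Day 113 well over its mean in the 4 wells, on a log axis, with a point for each gene, a solid line at their median and a dashed line at the median of all genes. The solid lines are at 1.65, 0.86, 0.937 and 0.53 for replicates 1 to 4, while the dashed lines stay at 0.984 to 0.992.

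Smaller shifts of the same kind were seen on the earlier days. Day 30 replicate 4 was the lowest of its day for 23 of the 37 (26.2% of all genes), with a median of 0.749 relative to the mean of the day. Day 60 replicate 2 was the highest of its day for 28 (33.4% of all genes), with a median of 1.28. The exceptions at Day 60 were CD34, EMCN, LYVE1, RAMP2, GIMAP4, ECSCR, BMX, AQP1 and CAV1.

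Levels of different genes were compared as CPM per kb of exon. At Day 30 the order was led by AQP1 (145 CPM per kb), S1PR1 (25.3), ESM1 (16.5), CAV1 (13.1) and PODXL (10.8), and CDH5, PECAM1 and VWF were at 2.76, 2.09 and 0.14. By Day 113 AQP1 (166) was still first, followed by ESM1 (63.1), CAV1 (52.7), PECAM1 (24), CD93 (21.8), EGFL7 (19.6) and S1PR1 (18.3). The Day 113 ranges of PECAM1 (10.9 to 44.7), CD93 (11.2 to 41.7), EGFL7 (11.4 to 23.1) and S1PR1 (17.4 to 19.9) overlapped, as did those of ESM1 (33.5 to 90.2) and CAV1 (51.7 to 53.9), so their order was not resolved by these wells. VWF reached 5.09 CPM per kb. BMX was lowest at 0.0905.

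Vascular ligands and co-receptors, not all of them partners of the receptors above, moved in both directions. Of 22 such genes on a list, 8 rose and 3 fell (VEGFA, VEGFB and NRP2) between Day 60 and Day 113. That was 50% called, beside 24% of all genes. At Day 113, 7 were higher and 8 lower than at Day 30 (68.2% called, beside 34.5% of all genes). The fall of VEGFB (adjusted p 0.024) was not called without Day 60 replicate 1 (0.14), Day 113 replicate 1 (0.056), Day 113 replicate 3 (0.063) or Day 113 replicate 4 (0.052), nor in a fit of these days alone (0.059). VEGFA, the ligand of KDR and FLT1, averaged 679, 851 and 544 CPM at Day 30, Day 60 and Day 113, and fell 1.56-fold in the second interval (log2 fold change -0.64 ± 0.12, SE; adjusted p 0.0011) while KDR and FLT1 rose. PGF, the placental growth factor that binds FLT1, read 1.49, 1.83, 2.67 and 4.19 CPM at Day 30, 0.798, 2.36 and 1.48 at Day 60 and 38.7, 20.2, 20.1 and 8.66 at Day 113, a 14.3-fold rise from Day 60 (log2 fold change 3.84 ± 0.51, SE; adjusted p 8.4e-05). ANGPT2, an angiopoietin that endothelial cells themselves release, read 6.99, 7.47, 6.84 and 5.32 CPM at Day 30, 2.2, 4.94 and 3.31 at Day 60 and 59.4, 23, 45.1 and 19.8 at Day 113, a 10.6-fold rise (log2 fold change 3.41 ± 0.37, SE; adjusted p 2.0e-05). In both genes Day 113 replicate 1 was highest and replicate 4 lowest, the same wells as for most of the 37.

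APLN (apelin), the ligand of the apelin receptor, read 24.8, 24.7, 15.1 and 19.1 CPM at Day 30, 49, 49 and 26.5 at Day 60 and 203, 162, 205 and 92.2 at Day 113, a 4-fold rise from Day 60 (adjusted p 1.1e-04). HGF, the growth factor for MET, averaged 0.477, 0.894 and 3.74 CPM on the 3 days. Its rise from Day 60 (adjusted p 0.024) was not called without Day 113 replicate 1 (0.11) or without any of the 3 Day 60 wells (0.055 to 0.083). VEGFC, the ligand of FLT4, averaged 12.9, 10.5 and 8.13 CPM and was not called in the second interval (adjusted p 0.23). ANGPT1, the ligand of TEK, averaged 18.5, 10.8 and 12 CPM and ADM, the ligand of CALCRL with RAMP2, 46.2, 46.4 and 41.5 CPM, with adjusted p-values of 0.77 and 0.68 in that interval.

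Many endothelial genes outside the 37 also rose between Day 60 and Day 113. A list of 38 further genes was also chosen with earlier results of these data known, so it is no independent check. Between Day 60 and Day 113, 24 of them rose and HEG1 fell (65.8% called, beside 24% of all genes). Their median log2 fold change was 1.67. Between Day 30 and Day 113, 18 rose and 4 fell (VCAM1, EPHB4, HEG1 and TMEM88), or 57.9% called beside 34.5% of all genes. The second-interval call for HEG1 was lost without Day 60 replicate 1 (adjusted p 0.12). Against Day 30 the calls for HEG1 and EPHB4 (adjusted p 0.049 and 0.044) were lost under most omissions of a well, with adjusted p-values up to 0.14 for HEG1 without Day 30 replicate 4 and 0.12 for EPHB4 without Day 30 replicate 2 or Day 30 replicate 3. GJA4 (connexin 37), an arterial gap junction protein, read 3.9, 4.27, 3.59 and 2.23 CPM at Day 30, 0.351, 1.22 and 0.789 at Day 60 and 43.1, 21.8, 13.9 and 7.62 at Day 113, a 27.7-fold rise from Day 60 (log2 fold change 4.79 ± 0.56, SE; adjusted p 3.5e-05). CLDN5 (claudin 5), the tight junction protein of endothelium, read 1.37, 0.934, 1.15 and 3.3 CPM at Day 30, 1.05, 3.13 and 1.58 at Day 60 and 66.2, 45.2, 28 and 16.6 at Day 113, a 20.5-fold rise (log2 fold change 4.36 ± 0.53, SE; adjusted p 4.3e-05). GPIHBP1, which carries lipoprotein lipase across capillary endothelium, had 0 counts in the 3 Day 60 wells and averaged 2.71 CPM at Day 113. With a floor of 3 counts per library that is at least 27.1-fold higher, with an adjusted p of 0.0018.

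Among 22 endothelial transcription factors that are not in the set, 11 rose and 2 fell (HEY2 and PROX1) between Day 60 and Day 113. That was 59.1% called, beside 24% of all genes. At Day 30 HEY2 and PROX1 were at 67.5 and 14.8 CPM per kb, and ERG was at 0.154. Which cells carried HEY2 and PROX1 was not tested. Over the whole culture this list did not go one way. From Day 30 to Day 113, 5 rose (SOX18, ETS1, LMO2, KLF2 and FOXC1) and 5 fell (ETS2, GATA2, PROX1, HEY1 and HEY2). That was 45.5% called, beside 34.5% of all genes, and the median log2 fold change was -0.21. Between Day 30 and Day 60, 8 fell (36.4% called, beside 10.3% of all genes), with 2 calls without Day 60 replicate 3. The whole-culture calls for LMO2, FOXC1, GATA2 and HEY1 were each lost when 1 of several single wells was left out, with adjusted p-values up to 0.095, 0.099, 0.064 and 0.053. SOX18, a factor of arterial and lymphatic development, read 3.82, 6.37, 4.28 and 2.34 CPM at Day 30, 0.734, 1.14 and 1.32 at Day 60 and 42.9, 20.5, 18 and 6.78 at Day 113, a 20.6-fold rise (adjusted p 5.2e-05). SOX7, of the same family, averaged 5.23, 0.752 and 12.5 CPM on the 3 days (adjusted p 6.7e-04 for the second interval), with a log2 fold change of 4.05, or 3.22 without Day 113 replicate 1. ETS1, an ETS factor of endothelium and lymphocytes, read 12.3, 17.7, 19 and 11.1 CPM at Day 30, 9.19, 10.9 and 9.24 at Day 60 and 121, 61.3, 70.8 and 44.5 at Day 113, a 7.61-fold rise (log2 fold change 2.93 ± 0.29, SE; adjusted p 9.9e-06). HHEX, a homeobox factor of early endothelium and liver, averaged 5.1, 0.311 and 2.42 CPM. Its log2 fold change from Day 60 was 3.00 (adjusted p 0.016), not called with limma-voom (0.078), without Day 60 replicate 1 (0.072) or in a fit of the compared days alone (0.068), and 4.87 without Day 60 replicate 2.

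Markers of special endothelia did not move as 1 block. Of 10 endocardial genes, 3 rose (CGNL1, CDH11 and POSTN) and 2 fell (GATA4 and ADGRG6) between Day 60 and Day 113. That was 50% called, beside 24% of all genes. At Day 30 GATA4 and CGNL1 were at 105 and 46.1 CPM per kb, and CDH5 was at 2.76. Which cells carried GATA4 and CGNL1 was not tested. The call for CDH11 was lost without Day 60 replicate 3 (adjusted p 0.059), and that for CGNL1 without Day 60 replicate 2 (0.066) or replicate 3 (0.059). Of 9 lymphatic genes outside the 37, 3 rose (PDPN, CCL21 and SOX18) and 1 fell (PROX1), or 44.4% called. POSTN (periostin), which fibroblasts also make, rose 2.33-fold (adjusted p 2.7e-04), and ADGRG6, an adhesion receptor of the endocardium, fell 1.93-fold (adjusted p 0.001). CCL21, a chemokine of lymphatic endothelium, averaged 2.91, 7.66 and 17.7 CPM, and its rise from Day 60 (adjusted p 0.02) was not called without Day 60 replicate 2 (0.076), Day 60 replicate 3 (0.092) or Day 113 replicate 2 (0.06). PROX1, the defining lymphatic factor, which cardiomyocytes also express, fell 1.56-fold over the same interval as LYVE1 rose (log2 fold change -0.64 ± 0.14, SE; adjusted p 0.0036).

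Markers of some other cell types moved beside the endothelial genes, and others were called about as often as all genes (24%). Of 13 blood cell genes analysed, 3 (23.1%) rose and 0 fell between Day 60 and Day 113 (RUNX1, KIT and LAPTM5, of which KIT and RUNX1 are also made by some endothelial cells), 2 were lower at an unadjusted p under 0.05, and DESeq2 called 2 lower. The call for KIT was lost with robust dispersions (adjusted p 0.06) and without Day 60 replicate 1 (0.063). From Day 30 to Day 113, 2 of the 13 rose and 3 fell (38.5% called, beside 34.5% of all genes). RUNX1 was among those that fell (log2 fold change -1.37, adjusted p 0.024). Its call was lost without Day 30 replicate 2 (0.085), Day 30 replicate 3 (0.066) or Day 113 replicate 4 (0.052). The summed level of the 13 was 19.3 to 37.1 CPM at Day 30, 11.9 to 20.8 at Day 60 and 22.1 to 52.6 at Day 113. LCP1, an actin-bundling protein of white blood cells, averaged 3.13, 0.0532 and 0.193 CPM, and its counts were 0 in 3 of the 7 later wells. GATA1, an erythroid factor, was at 0 counts in Day 113 replicates 1 and 2, and SPI1, a myeloid factor, in replicate 2. Of 15 fibroblast and epicardial genes 7 rose and PDGFRA fell (53.3% called), and their sum was 3480 to 7840 CPM at Day 30, 2280 to 3730 at Day 60 and 13300, 7050, 11500 and 5640 in the Day 113 wells. Of 12 pericyte and smooth muscle genes 6 rose and 0 fell (50% called), with sums of 1080 to 1210 CPM at Day 60 and 2110, 1740, 1790 and 1390 at Day 113. In both lists, as in the 37 genes, Day 113 replicate 1 was highest and replicate 4 lowest. The sums of the blood cell, endocardial, vascular ligand, outside transcription factor, and neural and pluripotency lists had the same highest and lowest wells. The cardiomyocyte, lymphatic, proliferation and endoderm sums did not share both wells. The 14 cardiomyocyte genes split 2 (TNNT2 and MYL2) higher and 2 (MYH7 and PLN) lower (28.6% called), with sums of 48500 to 56700 and 43500 to 49000 CPM. The call for TNNT2 (adjusted p 0.028) was lost without Day 60 replicate 1 (0.056), Day 60 replicate 3 (0.15) or Day 113 replicate 2 (0.056). All 10 proliferation genes fell. The part of these cells in the endothelial result was not tested.

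**Figure D5:**
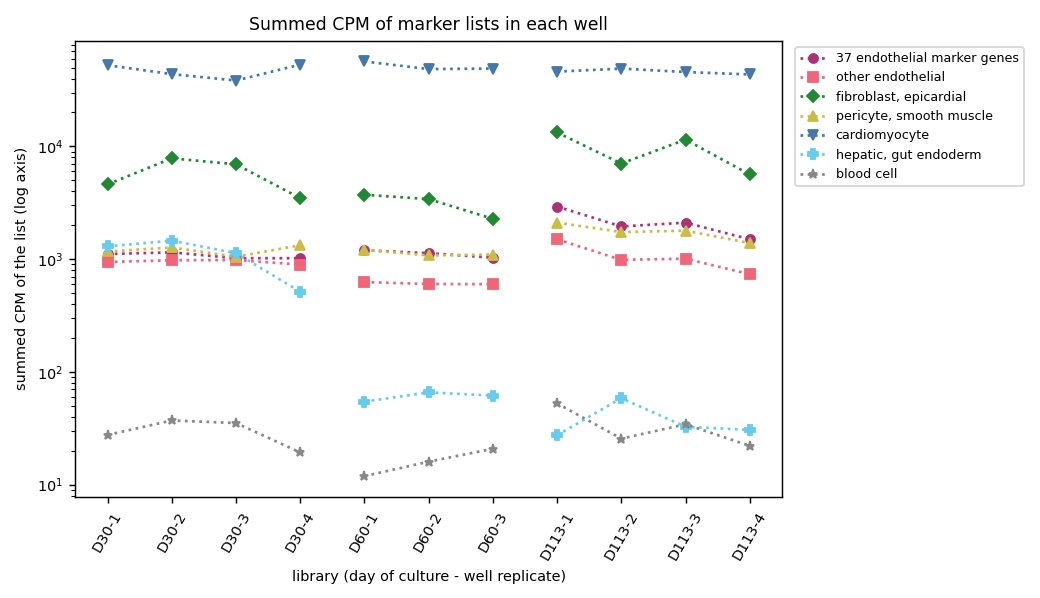
Summed CPM of 7 gene lists in each of the 11 libraries on a log axis, with dotted lines joining the wells of a day. The sums of the endothelial, fibroblast, pericyte and blood cell lists are highest in Day 113 replicate 1 and lowest of that day in replicate 4. The cardiomyocyte sums run from 38400 to 56700 CPM, and at Day 113 they are highest in replicate 2 and lowest in replicate 4.

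A list of 14 hepatic and gut endoderm genes summed to 515 to 1460 CPM at Day 30 and to 27.5 to 65.9 on the later days, and all but SOX17 of the 14 fell between Day 30 and Day 60. That was 92.9% called, beside 10.3% of all genes (5.91% lower). At Day 30 the well with the lowest endoderm sum, replicate 4, was the well in which 23 of the 37 endothelial genes were lowest; its endoderm sum was 515 CPM, against 1130 to 1460 in the others. The same well was the lowest of Day 30 for the fibroblast and epicardial sum (3480 CPM, against 4610 to 7840) and the blood cell sum (19.3, against 27.6 to 37.1). The part of these cells in the fall of FLT1, FLT4, ESAM, EGFL7, PLVAP and CD93 by Day 60 was not tested.

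Set beside the promoter search, the rise between Day 60 and Day 113 was called for 13 of the 15 genes with the core AGGAAG in the window, for 8 of the 10 without it and for 11 of the 12 with no promoter entry. Over all genes 12.9% were called higher. The 5 genes whose windows are printed above rose 10.8-fold (ECSCR), 5.69-fold (EMCN), 4.13-fold (PLVAP), 4.06-fold (EGFL7) and 2.76-fold (FLT1) over that interval. The 37 genes lie on 17 chromosomes, and the exons of 12 overlap another annotated gene.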

How the data were processed

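Gene counts of 11 poly(A) RNA-seq libraries were analysed as whole-number counts per gene, deposited by the authors after alignment with STAR 2.5.3a and counting with featureCounts 2.0.3 on hg38, per the submitters' processing notes. The TPM values deposited by the authors were not used, because the gene length implied by count over TPM did not rank genes alike between libraries (Spearman rho across genes from -0.021 to 0.028 over 55 library pairs). The strand setting of the counting is not given in the sources used here.

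Counts were scaled by TMM and fitted over all 3 days with edgeR 4.0.16 in R 4.3.3 (quasi-likelihood test, group means without covariates). The filter at a minimum count of 10 removed 0 of 19990 genes. Adjusted p-values are Benjamini-Hochberg values over all 19990 genes, called under 0.05, the standard error of a log2 fold change is its size over the square root of the F statistic, and the common biological coefficient of variation was 0.282. Folds against a day with all wells at 0 are bounds at a floor of 3 counts per library. Such floors cover counting error only. Alternatives were DESeq2 1.42.0, limma-voom (limma 3.58.1), other scalings, robust dispersions, a CPM filter, a fit of the compared days alone, a replicate block, a stricter threshold, and leaving out each well.

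On simulated counts of 19271 genes the test called 59.8% of 2-fold and 71.1% of 4-fold changes between Day 113 and Day 60, with 3.12% unchanged genes among the calls. Between Day 60 and Day 30, where nothing was changed, it called 0. The simulated means were the same on all days except for 92 genes changed 2-fold and 97 changed 4-fold at Day 113, with 19082 unchanged. In the data 24% of all genes were called between Day 60 and Day 113. The adjustment of p-values depends on that share, so these percentages describe the simulated setting and do not give the power in the data. Coordinates and exon lengths are from GENCODE v29 (GRCh38), and promoters from RefSeq (GRCh38.p14). Every member was named, and from each other list up to 4 called genes with the largest log2 fold changes between Day 113 and an earlier day and a mean CPM of at least 1 were eligible, with the VEGF, angiopoietin and adrenomedullin ligands and genes at 0 in all wells of a day. GATA1, SPI1 and the genes that make up a count of 5 or fewer in a list were named after their values were seen. The members and lists were chosen with earlier results of these data known. Of 34 listed blood cell genes, 13 were analysed here.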

Additional observations from a re-analysis of the deposited data

Results flagged for a closer look

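Of 73 sets of 4 wells of a day tested over the 37 genes, 3 held a well far from the others, where chance alone marks about 1 in 20 sets. CDH5 was at 155 CPM in Day 113 replicate 1 and at 37.6 to 57.6 CPM in the other wells of that day. CALCRL was at 16.3 CPM in the same well and at 7.61 to 8.18 CPM in the others. NOS3 was at 3.52 CPM in Day 30 replicate 3 and at 2.06 to 2.17 CPM in the others.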

How the results depend on the processing

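The counts of called genes for Day 113 against Day 60 (32), for Day 113 against Day 30 (29) and for any change (33) stayed within 1.5 times of those values under every alternative run, with ranges over the omission of single wells of 30 to 33, 27 to 30 and 31 to 34. The count between Day 30 and Day 60 (8) was 5 with limma-voom, 5 with robust dispersions, 5 at an adjusted p under 0.01, and 4 to 12 when single wells were left out. The difference between the intervals (24) was called for 13 genes with limma-voom, for 15 at an adjusted p under 0.01, and for 15 to 25 when single wells were left out. With the replicate block the first interval had 13 calls (2 higher, 11 lower), the whole culture 28 and the difference between intervals 25. Deviations of same-numbered wells correlated at 0.03 to 0.20, all positive, and of other wells at -0.15 to 0.16. Whether same-numbered wells shared more than a number was not tested. When single wells were left out, the Day 113 against Day 30 log2 fold change ran from -0.05 to 0.36 for FLT1, from -0.12 to 0.31 for PLVAP and from -0.23 to 0.01 for PODXL. The sign changed without Day 113 replicate 1 (FLT1 and PLVAP), without Day 30 replicate 4 (PLVAP, -0.04) or without Day 30 replicate 2 (PODXL), and none was called. The cause of these shifts was not tested. No scaling moved the median of all genes by more than 0.1 on the log2 scale. Low counts limit LYVE1, TAL1, LYL1, CLEC14A, ICAM2 and BMX, and a single differentiation of a single line leaves the spread between cultures unknown.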
